A study of Mus musculus with 6 samples.

Results

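The Clca genes encode a family of secreted or membrane-associated glycoproteins that have a metalloprotease-like part, are themselves cut and regulate calcium-activated chloride currents. They are not thought to form channels themselves. In mucous epithelia CLCA1 is released with mucus by goblet cells and acts on the chloride channel ANO1, and it is best known for its rise under interleukin 13 in allergic airways. CLCA2 is a gene of stratified squamous epithelium, and CLCA4 is one of the digestive tract. All 7 mouse genes lie in 1 block on chromosome 3, and all 7, of 20145 genes named on the array, were described here in the uterus with and without epithelial Sox17. The members were taken by the RefSeq accession of their probes and were chosen with their signals on these same arrays known, so their values are given as a description and carry no test.

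The names of the family have changed, and the older ones are still met. The gene now called Clca1 was Clca3 or gob-5, Clca3a1 was Clca1, Clca3a2 was Clca2, Clca3b was Clca4, Clca4a was Clca6, Clca4b was Clca7 and Clca2 was Clca5. The current names are used throughout. Each member had 1 probe, with 1 spot on each array: NM_017474 for Clca1, NM_178697 for Clca2, NM_009899 for Clca3a1, NM_030601 for Clca3a2, NM_139148 for Clca3b, NM_207208 for Clca4a and NM_001033199 for Clca4b.

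Uterine RNA of 3 mice of each genotype, Sox17 f/f and Sox17 ed/ed, was hybridized to 6 Agilent arrays of 1 colour, 1 whole uterus to an array. The females were mated at 8 to 10 weeks of age and killed at gestation day (GD) 3.5 of natural pregnancy, and the uteri were taken free of embryos. All 6 mice carried the floxed Sox17 allele. Sox17 ed/ed mice (labelled Sox17 KO) also carried iCre at the Ltf locus, which is active in the uterine epithelium from puberty, and Sox17 f/f mice (labelled WT) carried no Cre. Ltf, an estrogen-induced gene that drives the recombinase, was itself higher in Sox17 ed/ed uteri by 5.63 on the log2 scale (SE 0.15, adjusted p = 1.16e-05, limma). The arrays lay on 1 slide, with each genotype in its own line, so genotype and slide line cannot be told apart. Between 56.8% and 65.7% of the spots other than controls were well above background, and 0 spots were saturated. Sox17 was lower by 2.45 on the log2 scale in Sox17 ed/ed uteri (SE 0.09, adjusted p = 2.66e-05, limma), and its level remained well above background on all 3 of those arrays. The estrogen receptor Esr1 had a log2 difference of -0.04 (adjusted p = 0.738, limma) and the progesterone receptor Pgr one of 0.01 (adjusted p = 0.946, limma); neither passed the test.

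Start regions from RefSeq (build GRCm38.p6) were used for 4 of the 7 genes, Clca3a1, Clca3b, Clca4b and Clca2. The 250 bases before the annotated start are shown for Clca3a1, which was bright on all 6 arrays and had a lower level after the loss of Sox17. They are written 5′ to 3′ on the strand of the gene, the minus strand, and the region is chr3:144760978-144761227.
Clca3a1: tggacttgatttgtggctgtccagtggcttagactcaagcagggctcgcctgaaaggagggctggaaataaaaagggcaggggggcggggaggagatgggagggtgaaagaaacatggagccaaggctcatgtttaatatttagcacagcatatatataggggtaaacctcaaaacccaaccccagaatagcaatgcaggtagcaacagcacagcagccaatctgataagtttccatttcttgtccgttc
In the 6 pairs among the 4 windows, which run on for 50 bases past the start, the longest shared run was 9 bases. Compared position by position without gaps, 22.8% to 28.0% of the 250 positions were alike. The level in unrelated windows was not computed, so no likeness is read from these values.

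Motifs were searched on both strands of the 250 bases, and a match is a description of letters only. The full estrogen response element, GGTCANNNTGACC, was in 0 of the 4 windows and in 0.0629% of 27025 start regions of all genes. Its half-site, AGGTCA, was in the windows of Clca3b and Clca4b and in 13.8% of all. The SOX core AACAAT was in the window of Clca2 and in 9.65% of all, and the TATA box letters TATAAA were in that of Clca4b and in 13% of all. None of these letters were in the window of Clca3a1.

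In the uterus the family fell into 3 kinds of readout. Clca1 was bright on every Sox17 ed/ed array and near background in Sox17 f/f uteri, Clca3a1 and Clca3a2 were bright in both genotypes but less so after the loss of epithelial Sox17, and the other 4 members were at or near background. Testing a gene required a probe that stood well above background on 3 or more of the 6 arrays, and 3 of the 7 members passed that filter. Clca1 passed it through its 3 Sox17 ed/ed arrays and 1 Sox17 f/f array, so it could pass only by being high in 1 genotype.

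**Figure D1:**
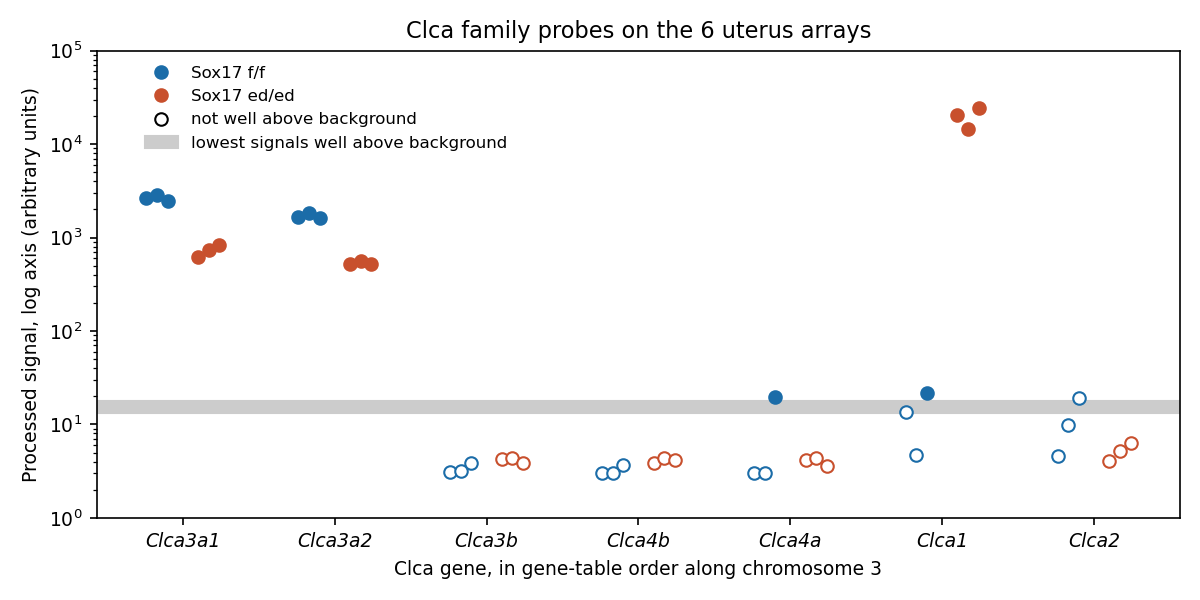
Processed signal of the 7 Clca probes on each of the 6 arrays, on a log axis in arbitrary units, with genes in chromosomal order. Filled points were well above background, open points were not, and the grey band spans the lowest signal well above background on the arrays (13.1 to 18); Clca1 lies between 14700 and 24300 on the Sox17 ed/ed arrays and between 4.65 and 21.5 on the Sox17 f/f arrays.

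Clca1, the goblet cell member, had processed signals of 13.6, 4.65 and 21.5 in the 3 Sox17 f/f uteri and of 20400, 14700 and 24300 in the 3 Sox17 ed/ed uteri. The genotypes did not overlap. The lowest Sox17 ed/ed array was far above the highest Sox17 f/f array, and the Sox17 f/f signals lay at the edge of detection: all 3 were positive against their local background, but only that of replicate 3 was well above it. After log2 and quantile normalization the levels were 3.92, 2.41 and 3.79 against 14.35, 13.96 and 14.62, or 3.37 ± 0.84 against 14.31 ± 0.33 (SD, n = 3 each). The log2 difference was 10.94 (SE 0.42), a fold of 1960. With each Sox17 f/f value held at the lowest signal well above background on its array where it was under that, Clca1 was 1430-fold higher, or 10.48 on the log2 scale. The size depends on how background is handled: with normexp correction and an offset of 50 the log2 difference was 8.14. Among the 14847 genes tested, this was the highest log2 difference. As these are whole uteri, more cells of a type and more RNA per cell cannot be told apart, here and in the differences that follow.

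Clca3a1, a mouse gene whose product has been described on lymphatic endothelial and stromal cells, had processed signals of 2640, 2840 and 2480 in Sox17 f/f uteri and of 626, 732 and 824 in Sox17 ed/ed uteri. All 6 arrays were well above background and the genotypes did not overlap. On the normalized log2 scale its levels were 11.41, 11.39 and 11.19 against 9.28, 9.62 and 9.67, with means of 11.33 ± 0.12 and 9.52 ± 0.21 (SD, n = 3 each). The level in Sox17 ed/ed uteri was lower by a log2 difference of -1.81 (SE 0.12), a fold of 3.5. Only 1.35% of the genes tested had a lower difference.

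Clca3a2, its neighbour in the block and close relative, had processed signals of 1650, 1830 and 1620 in Sox17 f/f uteri and of 524, 560 and 527 in Sox17 ed/ed uteri. Again every array was well above background and the genotypes did not overlap. The normalized log2 levels were 10.74, 10.75 and 10.58 against 9.03, 9.23 and 9.03, with means of 10.69 ± 0.10 and 9.09 ± 0.11 (SD, n = 3 each). The log2 difference was -1.60 (SE 0.09), a fold of 3.02, and 1.53% of the genes tested had a lower one. Clca3a1 and Clca3a2 are closely similar in coding sequence. Whether each probe measured its own gene alone was not tested.

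The other 4 members gave no measured difference. Clca3b, the next gene of the block, had signals of 3.11, 3.16 and 3.89 in Sox17 f/f uteri and of 4.29, 4.36 and 3.89 in Sox17 ed/ed uteri, none of them well above background. Clca4b, a member of the digestive tract group, had signals of 3.05, 3.04 and 3.69 against 3.9, 4.35 and 4.15, again none well above background. Signals of this size are about equal to the software's own error estimate for the spot (3.05 to 4.37 over the 2 probes), so they have no order between arrays or genotypes.

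Clca4a, the other member of that group, was well above background on 1 of 6 arrays. Its signals were 3.05, 3.02 and 19.8 in Sox17 f/f uteri and 4.18, 4.4 and 3.61 in Sox17 ed/ed uteri. Clca2, the squamous member, gave 4.56, 9.91 and 19.0 against 4.01, 5.18 and 6.29. No array put Clca2 well above background, although all 3 Sox17 f/f signals and 2 of the 3 Sox17 ed/ed signals were positive against their local background. The highest Sox17 f/f signals of Clca1, Clca2 and Clca4a all came from replicate 3, the array with the largest share of spots well above background (65.7%). The part of that array's sensitivity in these signals was not tested.

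A gene was called where limma gave an unadjusted p under 0.01 and the fold was at least 1.4, the thresholds of the study's methods. The 3 measured members lay past both thresholds, 1 of them higher and 2 lower, beside 6.04% of all tested genes called higher and 6.47% called lower. The 3 did not overlap between genotypes, as did not 40.6% of all genes. Because the members were chosen from this contrast, and Clca1 entered the fit through the genotype where it is high, this is no test of them and nothing is read from these counts. Over all 14847 genes the median log2 difference was 0, the median size of it was 0.17 and the median SD within a genotype was 0.12.

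**Figure D2:**
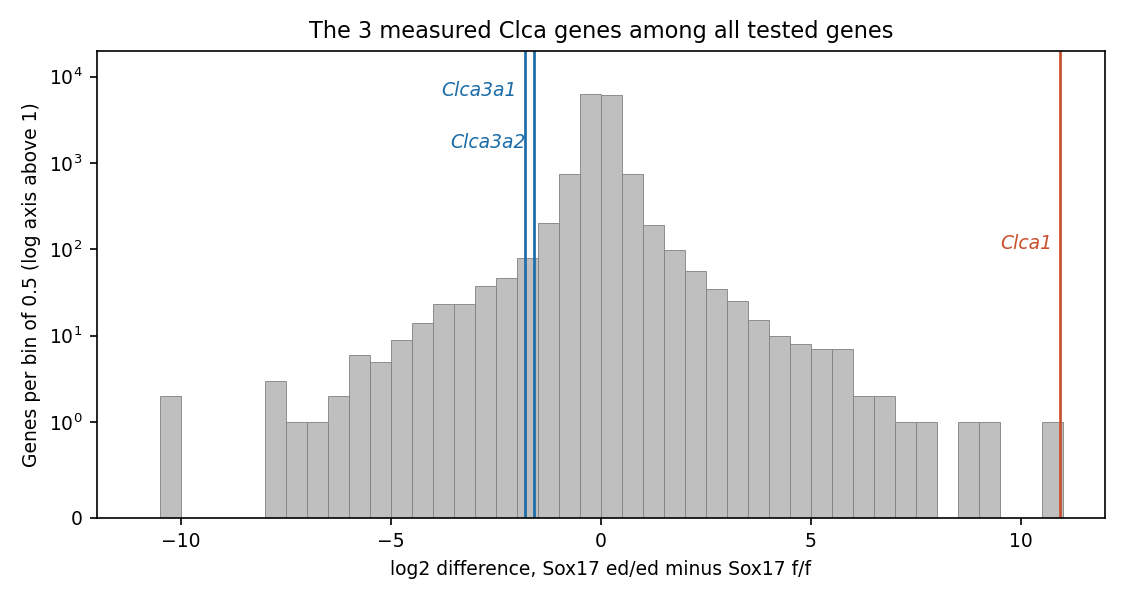
Number of tested genes in bins of 0.5 of the log2 difference, Sox17 ed/ed minus Sox17 f/f, with lines at the 3 measured Clca genes. Clca1 at 10.94 is the highest of 14847 genes, and Clca3a1 at -1.81 and Clca3a2 at -1.60 lie in the lower tail.

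Along chromosome 3 the block runs, in the order of the gene table, from Clca3a1 through Clca3a2, Clca3b, Clca4b, Clca4a and Clca1 to Clca2. The pair that was lower thus sits at one end, next to each other, and Clca1 near the other, with 3 members at or near background between them. The 2 nearest genes before the block, Selenof and Sh3glb1, had log2 differences of -0.13 (adjusted p = 0.213, limma) and -0.18 (adjusted p = 0.152, limma). The 2 nearest after it, Odf2l and Col24a1, had 0.03 (adjusted p = 0.886, limma) and 0.04 (adjusted p = 0.912, limma). None of these 4 was called.

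Among the 20 neighbours of the block, 10 on each side, 17 were tested, with a median log2 difference of -0.08. Of these 1 rose and 2 fell, beside 12.5% of all tested genes called in either direction, and nothing is read from the count. The gene that rose was Kyat3, an aminotransferase of the kynurenine pathway (log2 difference 0.57, adjusted p = 0.00249, limma), whose call was lost with the mean of its probes (0.41) and with normexp correction (0.47). The genes that fell were Znhit6, a factor of small nucleolar ribonucleoprotein assembly (-0.97, adjusted p = 0.00101, limma), and Ccn1, a secreted matricellular protein (-1.48, adjusted p = 8.67e-05, limma). They follow Col24a1 on the Clca2 side.

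**Figure D3:**
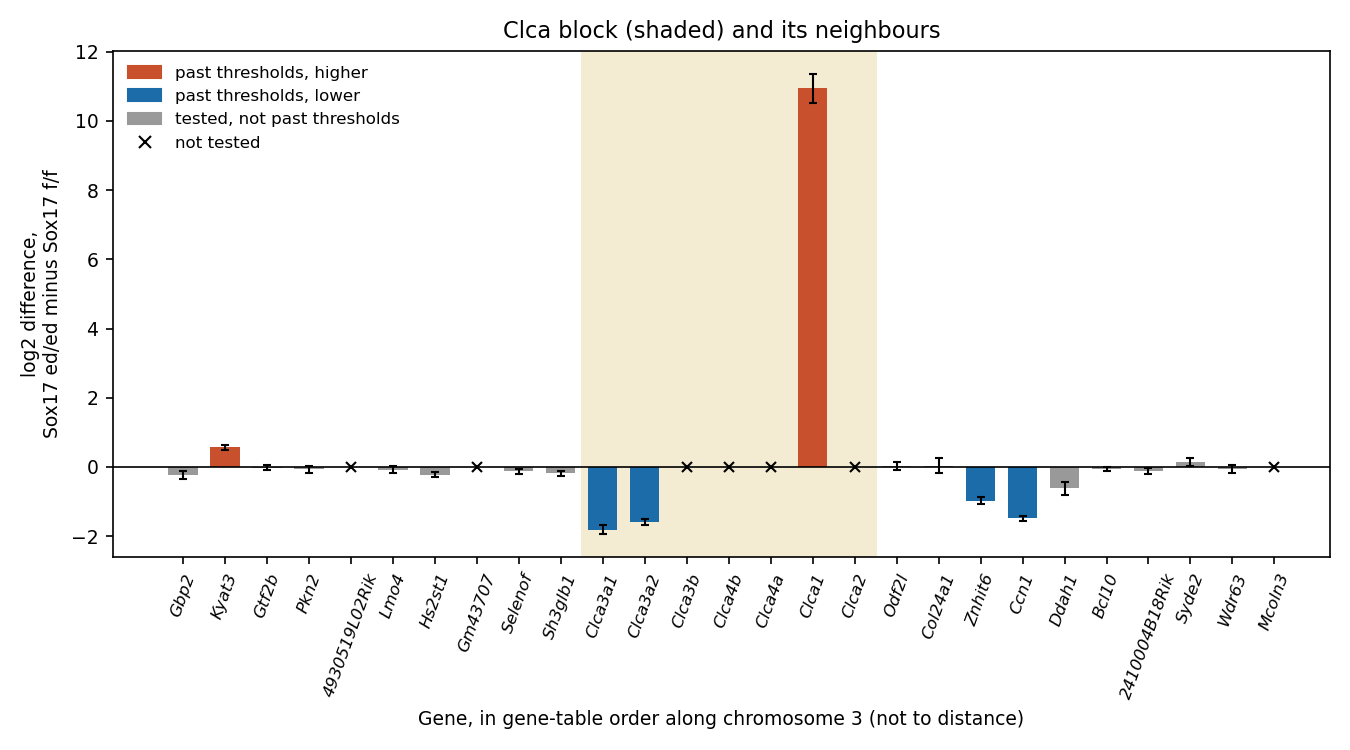
Log2 difference, Sox17 ed/ed minus Sox17 f/f, of the 7 Clca genes (shaded) and 10 genes on each side, in gene-table order and not to distance. Bars are the fitted differences with their SE from 3 arrays a genotype, crosses are genes without a test; the 4 genes that flank the block lie within 0.18 of 0.

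The genes nearest in pattern were found by the Euclidean distance between log2 profiles over the 6 arrays, each centred on its own mean, and are given as a description. Nearest to Clca1 were Cuzd1, a CUB and zona pellucida domain protein (distance 2.38, log2 difference 9.31), Cdh16, a cadherin first known from kidney (2.80 and 8.68), and Adh6a, an alcohol dehydrogenase (3.79 and 7.97). Cuzd1 was well above background on 0 Sox17 f/f arrays, Cdh16 on 2 and Adh6a on 3, so these distances rest in part on values near background and their order is not read. Cuzd1 was 191-fold higher in Sox17 ed/ed uteri with Sox17 f/f values held at the lowest signal well above background. With normexp correction the log2 difference of Cuzd1 was 5.15 and that of Cdh16 was 6.03.

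Clca3a1 was nearest to Kit, a receptor tyrosine kinase (distance 0.21, log2 difference -1.86), Gcnt1, a glycosyltransferase of core 2 O-glycans (0.22 and -1.66), and Gda, guanine deaminase (0.25 and -1.66). Clca3a2 was nearest to Rnf24, a RING finger protein (0.14 and -1.55), Selp, the endothelial and platelet adhesion receptor P-selectin (0.15 and -1.58), and Csf2rb2, a receptor subunit for interleukin 3 (0.17 and -1.57). The 2 Clca genes lay 0.38 from each other, and Clca1 lay 15.67 and 15.41 from them. Distances grow with the size of a difference, so those of Clca1 and of the other pair are not on 1 footing.

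**Figure D4:**
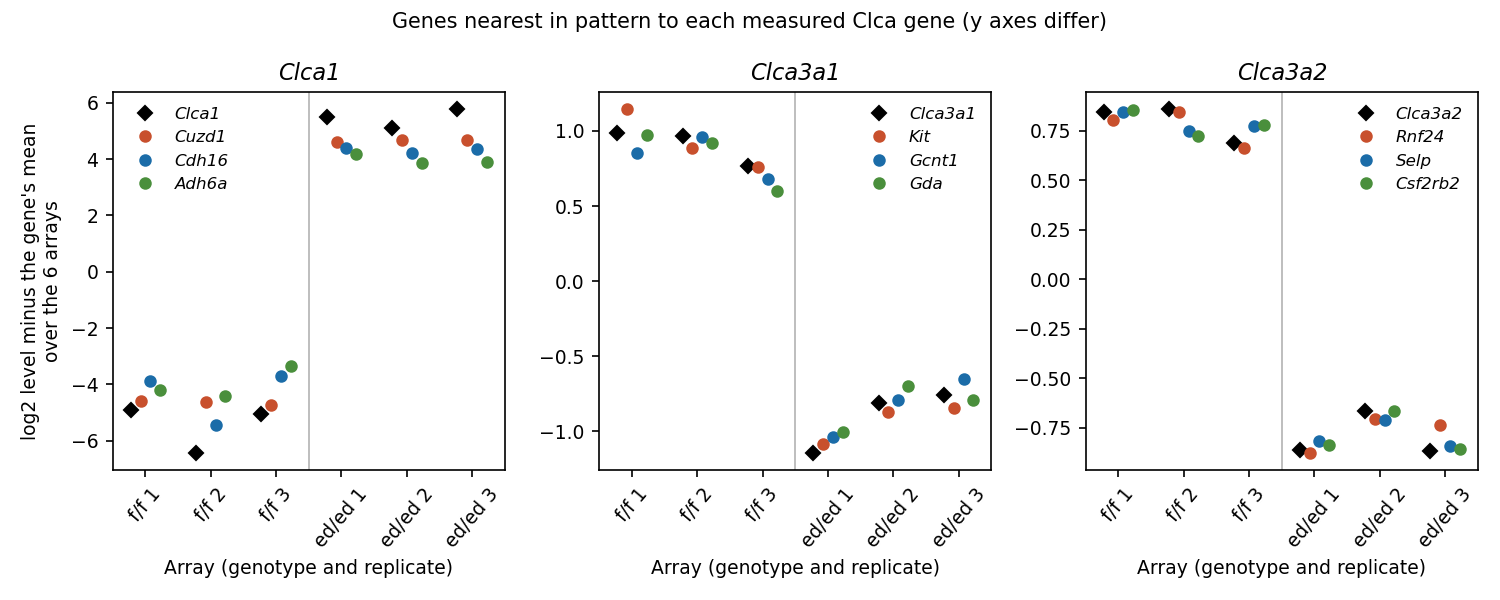
Log2 level minus the gene's own mean over the 6 arrays, for each measured Clca gene (diamonds) and the 3 genes nearest to it (circles), by array; the y axes differ. Within each panel the 3 Sox17 f/f arrays and the 3 Sox17 ed/ed arrays stand apart for the Clca gene and for the 3 others. The 3 others were picked as nearest to the Clca gene, so their separation follows from that choice.

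Mucus secretory cell genes, the group in which CLCA1 is best known, moved both ways. Of 24 on the list, 22 had a probe and 13 were tested, with a median log2 difference of -0.45. At the thresholds 3 rose and 4 fell, beside 6.04% of all tested genes called higher and 6.47% called lower. Their summed processed signal was 12100 to 12300 in Sox17 f/f and 21300 to 25900 in Sox17 ed/ed uteri. Without Fcgbp it was 11200 to 11400 against 8510 to 9960. Slc12a2 was the brightest of the others and weighs most in that sum. It had a log2 difference of -0.45 (adjusted p = 0.0575, limma) and was not called, so no shared fall is read from the sum. These and later summed signals are from before normalization between arrays. Fcgbp, an IgG Fc binding protein of mucus, rose from 9.87 ± 0.16 to 13.83 ± 0.14 (SD, n = 3 each), a log2 difference of 3.96 (adjusted p = 1.47e-05, limma). The gel-forming mucin Muc5b rose by 2.57 on the log2 scale (adjusted p = 0.00692, limma) and the O-glycosylation enzyme Galnt12 by 1 (adjusted p = 0.00096, limma). With normexp correction the difference of Muc5b was 1.33.

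Spdef, a transcription factor of goblet cell differentiation, fell from 8.63 ± 0.27 to 6.37 ± 0.27 (SD, n = 3 each), a log2 difference of -2.26 (adjusted p = 0.000571, limma). Bpifb1, a secreted protein of mucous airways, fell by 2.47 on the log2 scale (adjusted p = 0.00533, limma), with 2 of 3 Sox17 ed/ed arrays well above background, and had -1.04 with normexp correction. Agr2, a disulfide isomerase that helps mucins fold, fell by 0.50 (adjusted p = 0.0138, limma) and Creb3l4, a membrane-bound transcription factor, by 0.54 (adjusted p = 0.0194, limma). The fold of Agr2 is close to the threshold, and it was not called without Sox17 f/f replicate 2 or 3, without Sox17 ed/ed replicate 2 or 3, or with normexp correction. The mucin Muc5ac had a log2 difference of 0.28 (adjusted p = 0.547, limma). Foxa3, Atoh1, Tff1, Tff2, Zg16 and Retnlb, which include defining goblet cell genes, were not well above background on any array.

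Chloride channel genes moved both ways. Of 30 on the list, 28 had a probe and 21 were tested; 3 rose and 2 fell, beside 12.5% of all tested genes called in either direction, and the median log2 difference was -0.09. At an unadjusted p under 0.05 with limma, 6 were higher and 8 lower, beside 16.3% and 17.5% of all tested genes. Ano1, the channel on which CLCA1 acts, had a level of 12.46 ± 0.13 in Sox17 f/f and 12.86 ± 0.10 in Sox17 ed/ed uteri (SD, n = 3 each). Its log2 difference of 0.40 (adjusted p = 0.0339, limma) was under the fold threshold, and the gene is called where only the adjusted p is used. Cftr, the cyclic AMP regulated chloride channel, had a log2 difference of -0.55 (adjusted p = 0.0717, limma) and was called only without Sox17 ed/ed replicate 2 (-0.71); with normexp correction it had -0.21.

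The genes that rose were Ano9, an anoctamin (1.61, adjusted p = 0.00063, limma), Clic6 (0.91, adjusted p = 0.0231, limma) and Clic3 (0.86, adjusted p = 0.0507, limma), both of the intracellular chloride channel family. Those that fell were the anion exchanger Slc26a6 (-1.28, adjusted p = 0.0366, limma) and Ttyh1 (-0.88, adjusted p = 0.0165, limma). Slc26a6 was fitted on 2 Sox17 ed/ed arrays, since its spot was left out on the third, and had a difference of -0.58 in the deposited table, which keeps that spot. Its other probes were well above background on every array and had log2 differences of -1.5 and -1.28. With the mean of probes Slc26a6 had -1.66. The call of Slc26a6 was also lost with no filter, without Sox17 f/f replicate 1 or without Sox17 ed/ed replicate 1 or 3. That of Clic6 was lost without Sox17 ed/ed replicate 1 or 2, and that of Ttyh1 with normexp correction (-0.48). Clic3 lay closest to the threshold (unadjusted p = 0.00966, limma). Its call was lost with a shift by the 75th percentile, the deposited table, no filter and the mean of probes. It was also lost without Sox17 f/f replicate 1 or 2 or any 1 of the Sox17 ed/ed arrays. Over the list, 2 genes were called without Sox17 ed/ed replicate 1, 3 without Sox17 f/f replicate 1 or Sox17 ed/ed replicate 3, and 9 where only the adjusted p was used, which 18.9% of all tested genes passed.

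**Figure D5:**
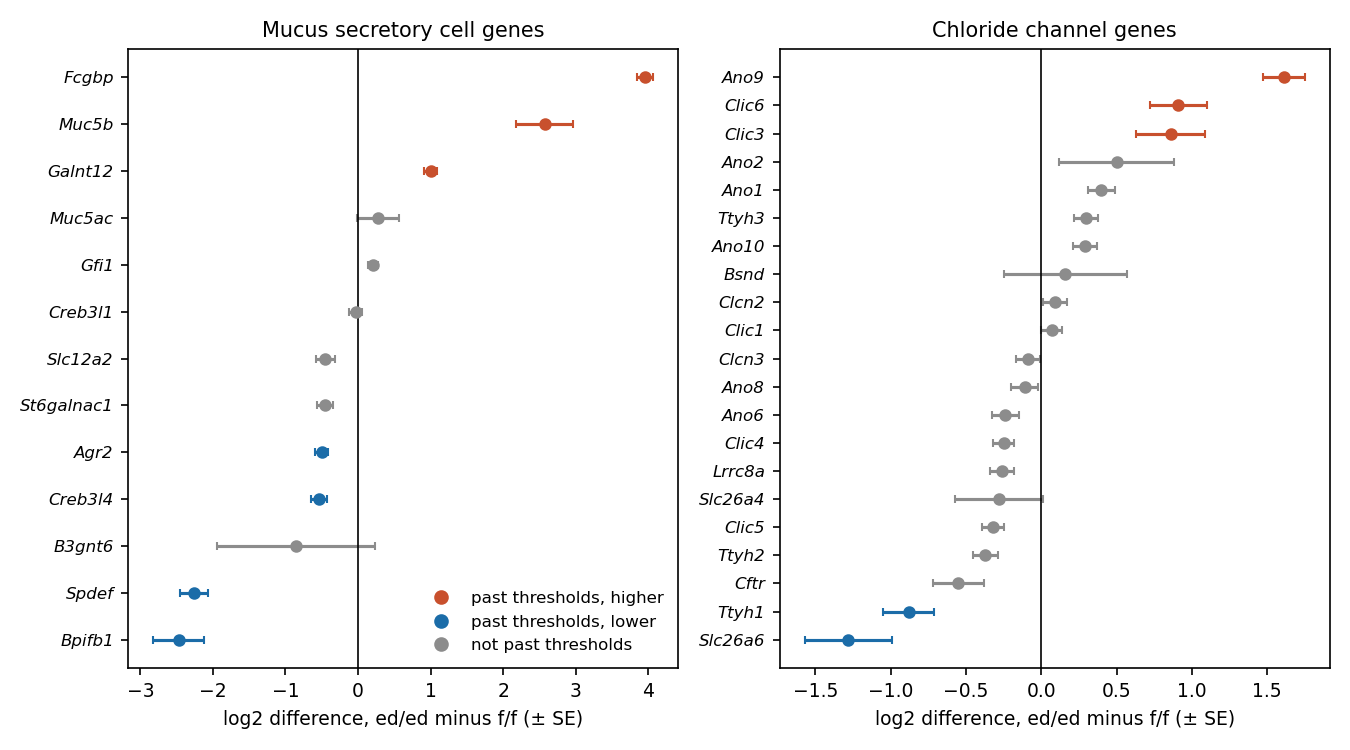
Fitted log2 difference, Sox17 ed/ed minus Sox17 f/f, with its SE (3 arrays a genotype, fewer where a spot was left out), of the tested genes of the mucus secretory cell list (left) and the chloride channel list (right), without the Clca genes. Fcgbp at 3.96 and Bpifb1 at -2.47 are the extremes of the first list, Ano9 at 1.61 and Slc26a6 at -1.28 those of the second.

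Genes of the type 2 cytokine response, under which Clca1 rises in airways, were called at a share near that of all genes. Of 22, all with a probe, 16 were tested; 1 rose and 1 fell, beside 12.5% of all tested genes called, with a median log2 difference of -0.17. At an unadjusted p under 0.05 with limma, 2 were higher and 3 lower, beside 16.3% and 17.5% of all tested genes. Il13 was well above background on 0 of 6 arrays. The receptor subunit Il4ra had a log2 difference of -0.23 (adjusted p = 0.115, limma) and the transcription factor Stat6 one of 0.03 (adjusted p = 0.762, limma). The decoy receptor Il13ra2 rose by 1.12 (adjusted p = 0.000717, limma), and the lipoxygenase Alox15 fell by 1.93 (adjusted p = 0.0261, limma). The Sox17 f/f arrays spread widely for Alox15 (SD 0.91), and its call was lost without Sox17 f/f replicate 1 or any 1 of the Sox17 ed/ed arrays, which leaves 1 called gene on the list without Sox17 f/f replicate 1.

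The study places Clca1, under its older name Clca3, among estrogen-responsive genes. The 7 other genes that it names as examples of that class were tested and all 7 rose, with a median log2 difference of 1.71; the examples were drawn up on these samples, so the count is not independent evidence of its direction. Sprr2f, a small proline-rich protein, rose by 5.97 (adjusted p = 1.54e-05, limma).

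Markers of other cell types were read beside the members. Over all tested genes 6.04% were called higher and 6.47% lower. At an unadjusted p under 0.05 with limma, 16.3% were higher and 17.5% lower. The counts of each marker list stand beside these shares. For the lymphatic endothelium, 9 of 10 markers had a probe and 9 were tested; 0 rose and 1 fell at the thresholds (Pdpn, podoplanin, -0.72, adjusted p = 0.00335, limma), and the median log2 difference was 0.01; at an unadjusted p under 0.05 with limma, 1 was higher and 2 were lower. At an adjusted p alone, Fgl2 also passed (-0.45, adjusted p = 0.0172, limma). The lymphatic factor Prox1 had a difference of 0.01 (adjusted p = 0.964, limma) and the hyaluronan receptor Lyve1 one of 0.02 (adjusted p = 0.918, limma). The summed signal of the lymphatic list was 7610 to 8780 in Sox17 f/f and 5240 to 5430 in Sox17 ed/ed uteri. Without Pdpn it was 2370 to 2980 against 2140 to 2400, which overlapped.

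For blood endothelium, 10 of 10 markers were tested, with a median of -0.36. At the thresholds 1 rose and 3 fell, beside 6.04% and 6.47% of all tested genes. At an unadjusted p under 0.05 with limma, 1 was higher and 7 were lower, beside 16.3% and 17.5% of all tested genes. The same counts passed an adjusted p under 0.05 without the fold threshold, which 18.9% of all tested genes passed in either direction. Plvap, of endothelial fenestrae, fell by 1 (adjusted p = 0.00072, limma), Vwf, von Willebrand factor, by 0.84 (adjusted p = 0.0172, limma) and Esam, an endothelial adhesion molecule, by 0.57 (adjusted p = 0.0153, limma), while the tight junction gene Cldn5 rose by 0.52 (adjusted p = 0.0119, limma). The summed signal was 29800 to 34000 in Sox17 f/f uteri and 20300 to 21400 in Sox17 ed/ed uteri. The part of endothelium in the values of Clca3a1 and Clca3a2 was not tested.

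For stratified squamous epithelium, 10 of 18 markers were tested, with a median of 0.18 and a summed signal of 5190 to 5310 against 5360 to 6300. At the thresholds 3 rose and 0 fell, beside 6.04% and 6.47% of all tested genes. At an unadjusted p under 0.05 with limma, 4 were higher and 0 lower. The basal keratins Krt15 (adjusted p = 0.000125, limma) and Krt5 (adjusted p = 0.0446, limma) rose. The probes used were well above background on 0 of 3 Sox17 f/f and 3 of 3 Sox17 ed/ed arrays. With Sox17 f/f values held at the lowest signal well above background, Krt15 was 62.8-fold higher and Krt5 5.25-fold higher in the group means. The fold of Krt5 rests mainly on 1 array. Its signals were 224, 28.2 and 40.6 in Sox17 ed/ed uteri (log2 SD 1.55) against 8.08, 9.74 and 16.6 in Sox17 f/f uteri. The other keratins tested were not called. Krt14 had a log2 difference of 0.3 (adjusted p = 0.271, limma) and Krt16 one of -0.25 (adjusted p = 0.211, limma). Krt13 had 0.06 (adjusted p = 0.935, limma) and Krt10 0.01 (adjusted p = 0.94, limma). Krt6b, Krt1 and Dsg1a were not well above background on any array. The 2 probes of Trp63, the basal cell factor, disagreed. The brighter had a log2 difference of -0.12 (adjusted p = 0.468, limma). The other was well above background on 0 Sox17 f/f and 3 Sox17 ed/ed arrays. It was 18.1-fold higher in Sox17 ed/ed uteri with Sox17 f/f values held in the same way. Clca2, the squamous member, was near background beside this.

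For uterine epithelium, where the recombinase is active, 10 of 10 markers were tested. Here 5 rose and 2 fell, beside 6.04% and 6.47% of all tested genes. The median was 0.34, and the summed signal of 50300 to 53200 against 47300 to 62600 overlapped. Of the 8 intestinal markers, 4 were not well above background on any array, among them the intestinal factors Cdx1 and Cdx2, and 1 of the 2 tested rose; the summed signal was 237 to 338 against 264 to 428, which overlapped. All 8 oviduct markers were tested, and 1 rose and 2 fell, with a median of -0.06 and a summed signal of 2000 to 2990 against 712 to 760. Ovgp1, by far the brightest of them in Sox17 f/f uteri, weighs most in that sum and fell by 2.92 (adjusted p = 0.000422, limma). Dnah5 fell by 2.82 (adjusted p = 0.0158, limma), with 1 Sox17 ed/ed array well above background. Foxj1 rose by 2.44 (adjusted p = 0.00546, limma), with 1 Sox17 f/f array well above background. Both sizes rest in part on values near background. Neither the epithelial nor the oviduct share was tested as a source of the Clca signals. The markers of endometrial stroma (10 of 10 tested) gave 0 calls with limma and a median of 0.03, with 4 higher and 1 lower at an unadjusted p under 0.05. Their summed signal, not normalized between arrays, was 321000 to 341000 in Sox17 f/f and 282000 to 297000 in Sox17 ed/ed uteri. Dcn, the brightest of them in Sox17 f/f uteri, had a log2 difference of -0.42 (adjusted p = 0.0172, limma), under the fold threshold. Of the myometrial markers (10 of 10 tested) 0 rose and 2 fell with limma, with a median of -0.28, 0 higher and 6 lower at an unadjusted p under 0.05, and a summed signal of 499000 to 574000 against 367000 to 421000. Leukocyte markers (7 of 10 tested) gave 0 calls with limma and a median of -0.06, with 1 higher and 0 lower at an unadjusted p under 0.05 and a summed signal of 15200 to 17100 against 16900 to 19200.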

How the data were processed

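The uterus of each of 6 mice, 3 per genotype, was measured on 1 array, and samples were grouped by the labels. For each array the authors deposited its scanner file; the intensity used is the processed signal, background-subtracted and detrended within each array by Feature Extraction (11.0.1.1 in the file headers, 9.1 in the submitters' processing notes), with no normalization between arrays. Subtraction makes log2 values near background uncertain. Detection flags and error estimates came from the same deposited files (per the file headers, unit other for the flags). A deposited table of processed values lay within 0.191% of the mean processed signal of each probe.

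Control spots and 169 to 302 spots an array that the software marked as outliers were left out; 85 tested genes thereby lacked a value on at least 1 array. Log2 signals were quantile normalized, as in the study's methods. Summed signals of gene lists are of processed signals without this step, so they also carry differences in scale between arrays. Accessions matched 26582 of the 55681 probes to 20145 genes (GRCm38.p6 gene table, used for names and gene order only, since the array design is on another build). A probe had to be well above background on 3 or more arrays, the brightest probe standing for a gene, which left 14847 genes. They were fitted with limma 3.58.1 under R 4.3.3 (lmFit, eBayes), and p-values were adjusted over all of them by the Benjamini-Hochberg method. A gene was called at an unadjusted p under 0.01 and a fold of at least 1.4; the highest adjusted p among the 1857 called was 0.052. The fits were tested on simulated data, and plots used Python 3.11.15 and matplotlib 3.10.9.

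The members and the gene lists were chosen with earlier results of these data known. Genes named are the members, Sox17, Esr1, Pgr, Ltf, a few genes tied to the family's biology, the 2 nearest neighbours on each side, the 2 highest and 2 lowest called genes of each list and the 3 genes nearest to each member that differed at least 2-fold; marker genes, the third and later genes of a list, and Fgl2 were picked with their values seen. With 3 arrays a genotype, the number of arrays limits the precision, an exact permutation test of 1 gene cannot go below 0.1, and where samples share a cage or day is not given in the sources used here. The alternatives tried are given in the closing section. Start regions of 3 members are not reported here.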

Additional observations from a re-analysis of the deposited data

How the results depend on the processing

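Clca1, Clca3a1 and Clca3a2 kept their direction under every alternative that gave a value: a shift by the 75th percentile, the deposited table, no filter, the filter of all 6 arrays (which leaves Clca1 untested), the mean of a gene's probes, an eBayes intensity trend, the replicate block, each array left out, and 2 alternatives chosen after seeing the data, values held at the lowest signal well above background and normexp on the median signal with an offset of 50. The planned normexp on the mean signal was not run, since the files used here hold the median signal. Clca1 had 8.14 with normexp, and leaving out each array gave 10.42 to 11.29 for Clca1, -1.88 to -1.69 for Clca3a1 and -1.66 to -1.56 for Clca3a2.

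With an adjusted p under 0.05 and no fold threshold 2808 genes were called in place of 1857, and 9 chloride channel genes in place of 5; that list had 3 calls with the deposited table and 3 with no filter. Leaving out each array gave 1584 to 1946 genes called, 2 to 5 on the chloride channel list and 1 to 2 on the type 2 list. Over the other named genes and all alternatives, 594 values kept their direction and side of the thresholds, 19 lost the call, 2 gained it and 18 turned direction. Those that turned were near 0 or, for Trp63, had probes that disagree. With the 75th percentile shift, Pgr had -0.01 and Prox1 -0.03, and with the mean of probes, Trp63 had 2.25 and Stat6 -0.04. With each array left out, Esr1 ran from -0.08 to 0, Pgr from -0.02 to 0.03, Prox1 from -0.13 to 0.15, Lyve1 from -0.05 to 0.13, Odf2l from -0.05 to 0.16 and Col24a1 from -0.09 to 0.29. The cause was not tested.

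Replicate numbers are shared by the genotypes in the labels. The deviations of same-numbered arrays correlated at 0.06, -0.11 and 0 over 14762 genes, and those of differently numbered arrays at -0.08 to 0.08. With 3 arrays a genotype, each centred on its own group, these values cannot decide whether the numbers pair the mice. With the replicate block 1796 genes were called, and the log2 differences of the members were 10.94, -1.81 and -1.60. Signal over background limits Clca1 in Sox17 f/f uteri and the 4 members near background.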
